A study of Mus musculus with 30 samples.

Results

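A set of 10 genes of Wnt signal reception was followed across luminal and basal mammary epithelial cells: the R-spondin receptors Lgr4, Lgr5 and Lgr6, the co-receptors Lrp5 and Lrp6, the Frizzled receptors Fzd1 and Fzd7, the feedback genes Axin2 and Znrf3, and the nuclear factor Tcf7l2. They were chosen by name, and all 10 were among the 11137 genes of the deposited expression table, which held 30 libraries.

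A Wnt ligand binds a Frizzled receptor together with Lrp5 or Lrp6, which stops the destruction of beta-catenin and lets it act with TCF/LEF factors on target genes. R-spondins bind Lgr4, Lgr5 and Lgr6 and remove the ubiquitin ligases Znrf3 and Rnf43, which otherwise clear Frizzled and Lrp receptors from the cell surface. In the mammary gland (MG), progesterone-sensing luminal cells are a known source of Wnt4. Luminal cells are also a known source of R-spondin 1, whose gene the study names as a downstream target of Rank. Basal cells of the epithelium are known to respond to both.

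The libraries came from sorted luminal and basal cells of virgin and parous female mice of a mixed background. K8imTmG mice carried K8rtta, Tet-O-Cre and the Rosa mT/mG reporter. K8iΔRank mice carried the same alleles plus floxed Rank (RANK fl/fl), the receptor of the cytokine RANKL. All mice of both genotypes drank doxycycline at 1 mg/ml to induce Cre, from week 3 to week 8 of life by the labels, whereas the methods of the study give a later start. The keratin 8 promoter limits Cre to luminal cells, so the basal cells of K8iΔRank mice keep Rank, and parous glands were collected after involution, with the K8iΔRank dams having failed to sustain lactation. The luminal groups held 3 virgin K8imTmG, 3 virgin K8iΔRank, 5 parous K8imTmG and 4 parous K8iΔRank libraries, and the basal groups held 3, 4, 4 and 4. They came from 17 mice, of which 13 gave both lineages, and a library is named here by its group and mouse number.

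Each library held 340445 to 3130419 reads after molecular barcodes were collapsed (median 1853588), and 1 read was worth 0.381 to 5.43 normalized counts, so the lowest values below rest on single reads. Summed luminal markers (7 of 7 in the table) ranged from 5244 to 12085 normalized counts in luminal and from 764 to 2064 in basal libraries, and summed basal markers (8 of 8) from 40.8 to 227 and from 7714 to 12607, as the labels say. Rank itself (Tnfrsf11a) did not separate the genotypes in luminal cells. It stood at 9.57 to 18.6 normalized counts in virgin K8imTmG and 11.5 to 23.8 in virgin K8iΔRank luminal libraries, and at 12.8 to 64.9 and 27.0 to 41.1 in the parous ones. In basal libraries the ranges were 33.1 to 66.1 for virgin K8imTmG, 45.0 to 78.1 for virgin K8iΔRank, 50.8 to 75.4 for parous K8imTmG and 63.8 to 81.1 for parous K8iΔRank. The genotype difference in luminal cells was 0.33 (adjusted p = 0.687) on the log2 scale in virgin and −0.01 (adjusted p = 0.992) in parous mice. The assay reads the 3′ end of transcripts, and where the deleted part of Rank lies is not given in the sources used here, so these counts do not check the deletion.

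The libraries also fell into 2 sets that the labels do not name. Clec2d, a C-type lectin gene, stood at 65.6 to 199 normalized counts in 14 libraries (Clec2d-high below) and at 0.641 to 8.68 in the other 16 (Clec2d-low). The sets also differed in depth, with medians of 878946.5 and 2478110 reads. In 10 of the 13 mice with both lineages, the luminal and the basal library were on opposite sides. All virgin groups and the parous K8iΔRank luminal and K8imTmG basal groups lay on 1 side each. Parous K8imTmG luminal libraries (high in mice 494 and 557) and parous K8iΔRank basal libraries (high in mice 794 and 830) held both. The split and the genotype therefore cannot be told apart in virgin cells of either lineage, nor the split and parity in K8iΔRank luminal cells. In virgin mice of either genotype the split and the lineage cannot be told apart either. Where a fit allowed it, results for the 10 genes that the split touches are given with and without it. Lineage fits inside 1 side compare the luminal with the basal groups found there, which differ in stage and genotype, so those values mix lineage with both.

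In the GRCm39 annotation Lgr5 (ENSMUSG00000020140) lies on chromosome 10 at 115286216 to 115423685 on the minus strand, Fzd7 on chromosome 1 at 59521269 to 59534685 on the plus strand, Lgr4 on chromosome 2 at 109747839 to 109844609 on the plus strand, and Axin2 on chromosome 11 at 108811169 to 108841609 on the plus strand. Tcf7l2 (chromosome 19, 55730188 to 55922091) lies on the plus strand, and on the minus strand lie Lgr6 (chromosome 1, 134911039 to 135033100), Lrp5 (chromosome 19, 3634821 to 3736643), Lrp6 (chromosome 6, 134423439 to 134544212), Fzd1 (chromosome 5, 4803839 to 4808035) and Znrf3 (chromosome 11, 5226324 to 5394939). Because beta-catenin acts through TCF/LEF factors, the 1000 bases before each gene's annotated start were searched for the TCF/LEF core letters CTTTGAA and CTTTGAT on both strands. Lgr5, Lrp6 and Fzd1 held one of them, that is 3 of 10 genes beside 32.8% of 21770 protein-coding genes. The matches are shown 5′ to 3′ on each gene's own strand, with the core in capitals, because they are the matches among the 10 genes, and the lack of a match says only that these letters are not in that window. The Lgr5 match lies 512 to 506 bases upstream of the start (minus strand, chr10:115424181-115424207), the Lrp6 match 106 to 100 bases upstream (minus strand, chr6:134544302-134544328), and the Fzd1 match, which reads on the opposite strand, 475 to 469 bases upstream (minus strand, chr5:4808494-4808520).
Lgr5: ttctttgaggCTTTGATagttgagcaa
Lrp6: cgcaatggcaCTTTGATtttcctacgt
Fzd1: cagacttaaaTTCAAAGgaaacccgac

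The first comparison asked how the genes differed between the lineages. Lgr5, Fzd7, Lgr4 and Axin2 were far higher in basal cells, Tcf7l2 was higher in luminal cells, and Lrp5 and Lrp6 differed little. By limma over all 30 libraries, 9 of the 10 genes passed an adjusted p of 0.05, 8 lower and 1 higher in luminal cells. Of the 11133 genes tested, 55.7% passed, 27.0% lower and 28.7% higher. The median difference, luminal minus basal on the log2(normalized count + 1) scale, was −1.56 over the 10 genes and 0.04 over all genes.

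**Figure D1:**
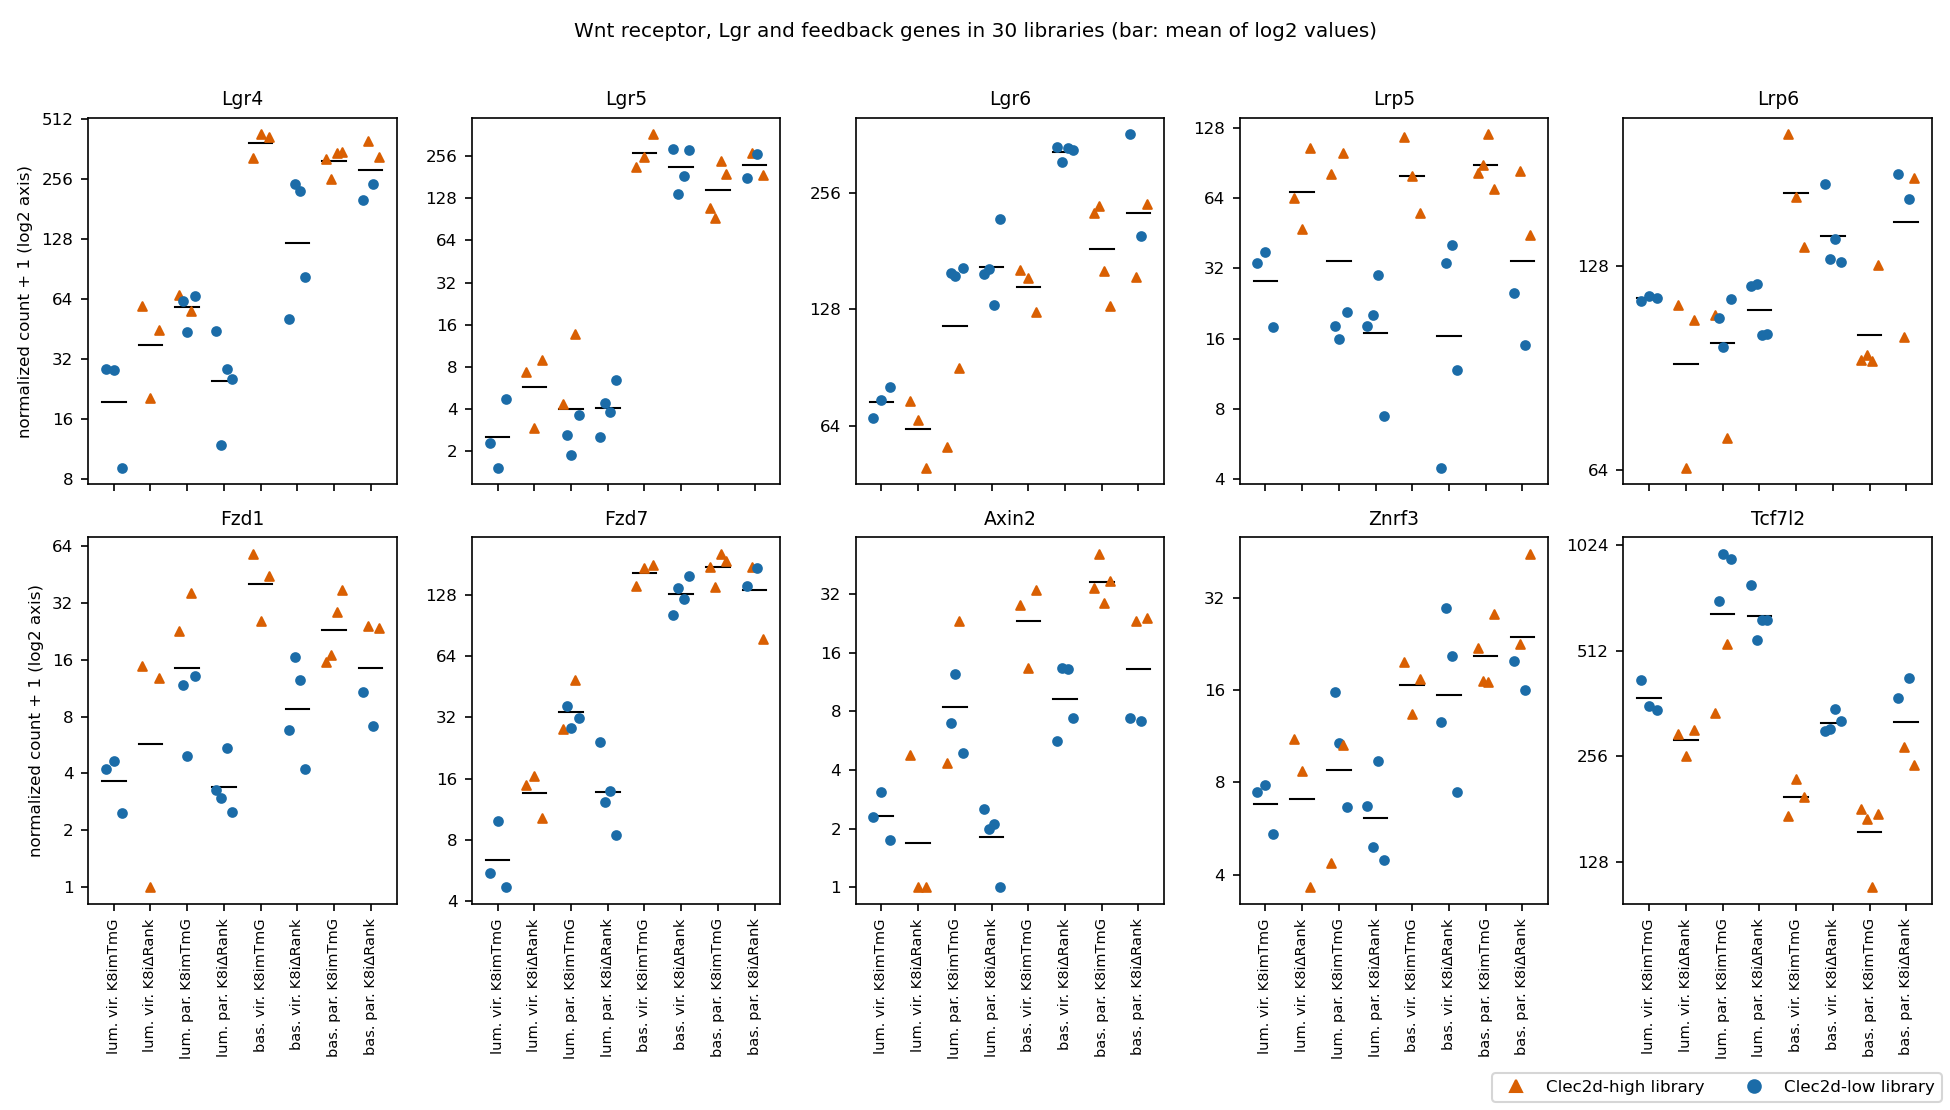
Normalized counts (plus 1, log2 axis) of the 10 genes in each of the 30 libraries, by lineage, stage and genotype, with Clec2d-high and Clec2d-low libraries marked and a bar at the mean of the log2 values. Lgr5 and Fzd7 were higher in every basal than in every luminal library.

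Among the R-spondin receptors, Lgr5, which marks stem cells of several epithelia, showed the widest gap. Its basal libraries stood at 214, 252 and 364 normalized counts in virgin K8imTmG, 286, 136, 183 and 280.3 in virgin K8iΔRank, 109, 90.9, 235 and 190.0 in parous K8imTmG, and 177, 270.2, 262 and 187 in parous K8iΔRank mice. The 15 luminal libraries ranged from 0.524 to 12.8 with a median of 2.79 and held 65 reads of Lgr5 in all. Every basal library was above every luminal one. The basal mean was 57.7 times the luminal mean, and the difference was −5.72 (SE 0.25, adjusted p = 8.41e-18). In all, 5 luminal libraries held fewer than 3 reads, so differences between luminal groups were not detectable for Lgr5 at this depth. Among the 4 basal groups neighbours in the order of mean levels overlapped, from virgin K8imTmG (median 252) to parous K8imTmG (median 149).

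Lgr4, a close relative of Lgr5 with wider expression, was lower in the luminal library of each of the 13 mice. Basal libraries read 323, 426 and 413 normalized counts in virgin K8imTmG, 49.6, 239, 221 and 81.6 in virgin K8iΔRank, 320.2, 254, 342 and 348 in parous K8imTmG, and 199, 397, 239.9 and 328 in parous K8iΔRank mice. Luminal libraries read 27.6, 27.3 and 8.10 in virgin K8imTmG, 58.0, 19.2 and 43.6 in virgin K8iΔRank, 65.5, 61.2, 42.4, 54.3 and 64.9 in parous K8imTmG, and 43.0, 10.8, 27.3 and 24.3 in parous K8iΔRank mice. All basal libraries but that of virgin K8iΔRank mouse 820 (49.6) lay above all luminal ones. The difference was −2.99 (SE 0.23, adjusted p = 2.39e-12), and the ratio of the lineage means was 7.24. Inside the Clec2d-high and the Clec2d-low libraries it was −2.88 and −2.45.

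Lgr6, the third R-spondin receptor, was closer between lineages. It ranged from 48.9 to 218 normalized counts (median 89.5) in luminal and from 125 to 361 (median 226) in basal libraries. The ranges overlapped, the luminal library was lower in 11 of 13 mice, and the difference was −1.12 (SE 0.15, adjusted p = 1.43e-07), a ratio of means of 2.03. Inside the Clec2d-high and Clec2d-low libraries it was −1.37 and −1.25.

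The 2 co-receptors did not follow the Lgr genes. Lrp6 was at similar levels throughout, with luminal libraries at 63.5 to 119 normalized counts (median 108) and basal libraries at 91.6 to 199.7 (median 136), a difference of −0.40 (SE 0.11, adjusted p = 0.00184). For Lrp5, the luminal range of 6.46 to 104 lay within the basal range of 3.46 to 119, and the difference of −0.46 (SE 0.33, adjusted p = 0.247) missed the threshold. With mouse as a block, which compares the lineages within the 13 animals that gave both, it passed (−0.81, SE 0.31, adjusted p = 0.0364). Its direction turned inside the library sets, at 0.05 in Clec2d-high and 0.21 in Clec2d-low libraries, where the groups compared also differ in stage and genotype. The lineage direction of Lrp5 thus depended on the fit.

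Of the Frizzled receptors, Fzd7, which is known for its part in mammary stem cell activity, was also higher in every basal than in every luminal library. Basal libraries stood at 141, 174 and 179 normalized counts in virgin K8imTmG, 102, 138, 121 and 158 in virgin K8iΔRank, 174, 139, 203 and 187 in parous K8imTmG, and 141, 175, 172 and 77.1 in parous K8iΔRank mice. Luminal libraries ranged from 3.68 to 47.9, below the lowest basal library at 77.1. The difference was −3.41 (SE 0.16, adjusted p = 2.60e-17), the ratio of means was 8.18, and inside the Clec2d-high and Clec2d-low libraries the difference was −2.74 and −3.34. Fzd1, a second Frizzled receptor, was scarce, with luminal libraries at 0 to 35.2 (median 3.97) and basal libraries at 3.22 to 57.5 (median 16.0). Its difference of −1.71 (SE 0.35, adjusted p = 0.00012) did not pass inside either library set (−1.13, adjusted p = 0.118, in Clec2d-high and −0.86, adjusted p = 0.0532, in Clec2d-low libraries).

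**Figure D2:**
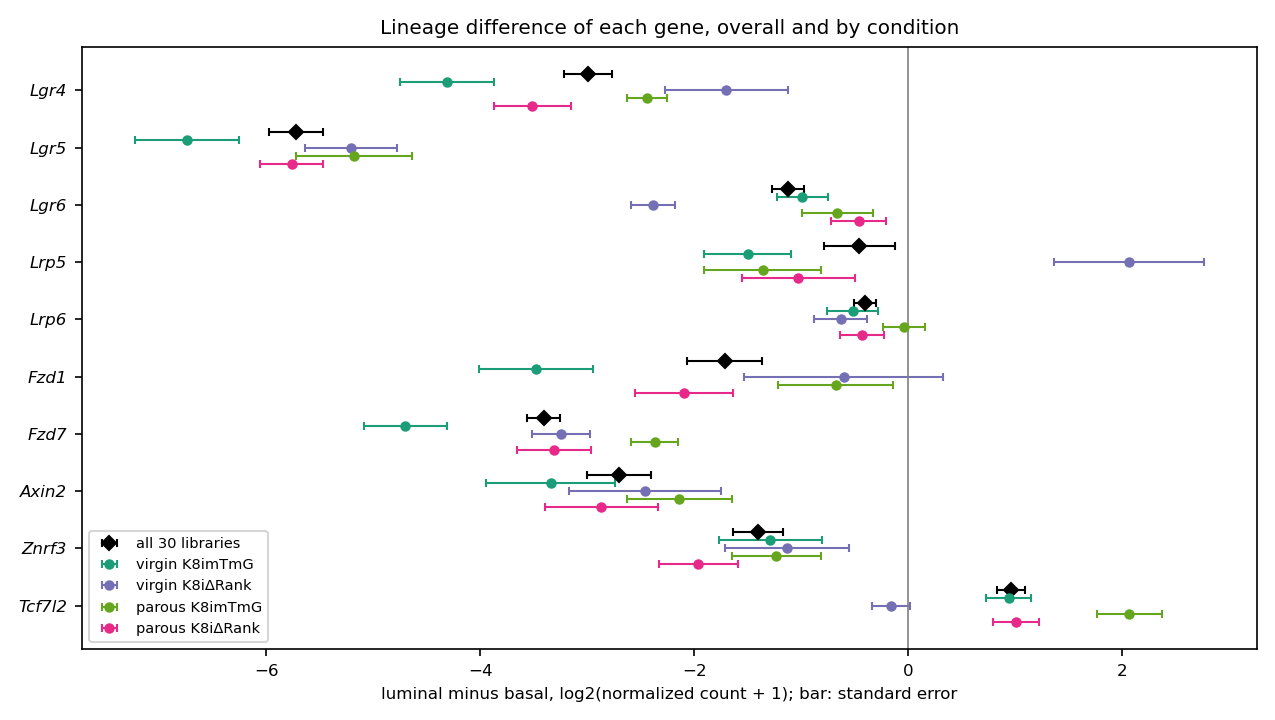
Luminal minus basal difference of each gene on the log2(normalized count + 1) scale over 30 libraries and in each of the 4 conditions of stage and genotype, with standard errors as bars. Lgr5 lay between −6.74 and −5.18 in every condition, whereas Lrp5 lay on both sides of 0.

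The feedback genes were low everywhere and lower in luminal cells. Axin2, a scaffold of the beta-catenin destruction complex and a widely used readout of Wnt signalling, stood at 27.3, 12.4 and 32.6 normalized counts in basal virgin K8imTmG, 4.62, 12.4, 12.2 and 6.44 in virgin K8iΔRank, 33.5, 50.8, 27.9 and 36.4 in parous K8imTmG, and 6.43, 22.3, 6.16 and 23.3 in parous K8iΔRank libraries. In luminal libraries it read 1.28, 2.10 and 0.736 in virgin K8imTmG, 3.79, 0 and 0 in virgin K8iΔRank, 3.36, 6.00, 11.5, 22.4 and 3.89 in parous K8imTmG, and 1.52, 0.983, 1.11 and 0 in parous K8iΔRank mice. These luminal values rest on 77 reads in all, with 8 of 15 libraries under 3 reads. Axin2 was lower in the luminal library of 13 of 13 mice, by −2.70 on the log2 scale over the lineages (SE 0.30, adjusted p = 5.25e-09). Znrf3, the ubiquitin ligase that R-spondins remove, was at 2.64 to 14.8 in luminal and 6.44 to 43.5 in basal libraries, lower in the luminal library of 13 of 13 mice (−1.40, SE 0.23, adjusted p = 7.46e-06).

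Tcf7l2, a TCF/LEF factor that carries beta-catenin to its targets, went the other way. Luminal libraries read 423, 356 and 347 normalized counts in virgin K8imTmG, 297, 256 and 304 in virgin K8iΔRank, 339, 709, 968, 534 and 934 in parous K8imTmG, and 788, 551, 627 and 628 in parous K8iΔRank mice. Basal libraries read 172, 219 and 196, then 301, 306, 347 and 321, then 180.0, 169, 107 and 174, and 376, 271, 428 and 241 in the same order of groups. The lineages overlapped, with virgin K8iΔRank luminal libraries at 256 to 304 and K8iΔRank basal libraries at 241 to 428. The luminal library was higher in 10 of 13 mice, and the difference was 0.96 (SE 0.13, adjusted p = 1.91e-07), with 0.82 inside Clec2d-high and 0.73 inside Clec2d-low libraries.

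Markers of other cell types also differed between the lineages, although the sort had excluded CD45+ blood cells and CD31+ endothelial cells. Summed endothelial markers (4 of 5 in the table) ranged from 3.36 to 37.8 normalized counts in luminal and 43.8 to 683 in basal libraries, pericyte markers (2 of 5) from 2.21 to 24.0 and 51.6 to 262, and the adipocyte marker in the table (Fabp4, 1 of 4) from 4.40 to 50.5 and 111 to 2587. Fibroblast markers (7 of 7) ranged from 103 to 960 and 579 to 1078, and immune markers (2 of 7) from 3.20 to 25 and 13.6 to 116. No marker of these lists was at 0 in every library of a lineage, and the part of these cells in the lineage differences was not tested. In such pooled cells, fewer cells of a type and less RNA per cell cannot be told apart.

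The lineage difference was then compared across the 4 conditions. Lgr5, Lgr4, Fzd7 and Axin2 were lower in luminal cells in all 4, by −6.74, −5.21, −5.18 and −5.76 for Lgr5 in virgin K8imTmG, virgin K8iΔRank, parous K8imTmG and parous K8iΔRank mice, in that order. For Fzd7 the values were −4.70, −3.25, −2.37 and −3.31, for Lgr4 −4.31, −1.70, −2.44 and −3.51, and for Axin2 −3.34, −2.46, −2.14 and −2.87. Each of these passed the threshold in its own comparison, but in virgin K8iΔRank mice Lgr4 (adjusted p = 0.0423) missed it without mouse 821, 822 or 825 (−0.96 and adjusted p = 0.257 without mouse 822) and Axin2 without mouse 825 (adjusted p = 0.113). The genes that passed numbered 8 in virgin K8imTmG (36.2% of all genes), 6 in virgin K8iΔRank (35.9%), 6 in parous K8imTmG (30.7%) and 7 in parous K8iΔRank mice (37.0%). Leaving out 1 mouse at a time gave 3 to 5 in virgin K8iΔRank mice. In virgin mice of each genotype the luminal and basal libraries lay on opposite Clec2d sides, so lineage and split cannot be told apart in those calls. Other calls that rested on single mice were those of Lgr6 (lost without mouse 531 or 533), Lrp5 (531 or 538) and Tcf7l2 (531) in virgin K8imTmG, of Lrp5 (820, 821 or 825) in virgin K8iΔRank, and of Znrf3 (any 1 of the 5 mice) in parous K8imTmG mice.

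Some genes changed their lineage difference with the condition. An F test of the difference over the 4 conditions passed for 5 of 10 genes beside 21.4% of all genes: Tcf7l2 (adjusted p = 0.00148), Fzd7 (0.00602), Lgr6 (0.00703), Lrp5 (0.0188) and Lgr4 (0.0223). Tcf7l2 differed by 0.94, −0.16, 2.07 and 1.00 in the order above. Lgr6 differed by −0.99, −2.38, −0.66 and −0.46. Lrp5 went from −1.50 in virgin K8imTmG to 2.06 in virgin K8iΔRank mice (SE 0.70, adjusted p = 0.0428), where the luminal libraries were Clec2d-high and the basal ones Clec2d-low. With the Clec2d side as a covariate, an alternative chosen after seeing the data, Tcf7l2 was the 1 gene of the 10 that still passed (adjusted p = 0.0285), with Fzd7 at adjusted p = 0.0660, and 27 genes passed in all.

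With mouse as a block, which keeps only the 13 mice with both lineages, the calls shifted for a few genes. In virgin K8imTmG mice Lgr6 (adjusted p = 0.0509) and Tcf7l2 (0.0681) no longer passed. In virgin K8iΔRank mice Lrp5 no longer passed (1.44, adjusted p = 0.0715). In parous K8imTmG mice Lrp5 passed (−1.67, adjusted p = 0.00649) and Znrf3 did not (adjusted p = 0.0816), and in the F test Lgr4 did not (adjusted p = 0.0948).

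Within the 2 groups that held both library sets, Lrp5, Fzd1 and Tcf7l2 separated by Clec2d side in the same direction in both. Among the parous K8imTmG luminal libraries, Lrp5 stood at 80.6 and 99.1 normalized counts in the Clec2d-high libraries of mice 494 and 557 and at 15.0 to 19.9 in the other 3. Among the parous K8iΔRank basal libraries it stood at 82.9 and 43.5 in the Clec2d-high libraries of mice 794 and 830 and at 24.0 and 14.1 in the others. The Clec2d sides differed in Lrp5 by 2.31 in the luminal and 1.65 in the basal group on the log2 scale, beside a lineage difference of −0.46. Fzd1 was also higher in Clec2d-high libraries (1.65 and 1.44), and Tcf7l2 was lower (−1.02 and −0.65). These 3 of 10 genes stand beside 30.3% of all genes that separated in the same direction in both groups. In the luminal group alone, 5 of the 10 separated, beside 51.4% of all genes, and in the basal group 6, beside 58.7%, shares near those of all genes. Fzd7 (0.21 and −0.42) and Lrp6 (−0.27 and −0.35) overlapped between the sides in both groups.

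**Figure D3:**
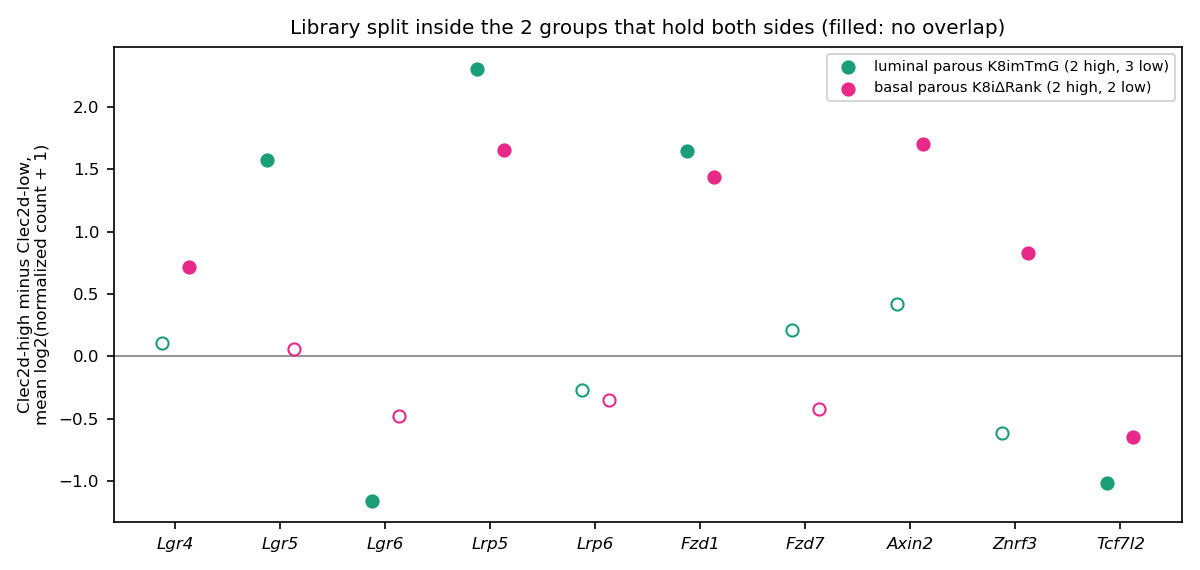
Clec2d-high minus Clec2d-low libraries, as the difference of mean log2(normalized count + 1), for the 10 genes within parous K8imTmG luminal and parous K8iΔRank basal libraries, with filled points where the 2 sides did not overlap. Lrp5 and Fzd1 were higher and Tcf7l2 lower in Clec2d-high libraries of both groups.

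The next comparisons asked what parity and the loss of Rank did in luminal cells. Fzd7 was the clearest case. It stood at 4.49, 8.91 and 3.68 normalized counts in virgin K8imTmG, 13.9, 15.4 and 9.25 in virgin K8iΔRank, 26.9, 35.2, 27.4, 47.9 and 30.7 in parous K8imTmG, and 23.2, 11.3, 12.8 and 7.45 in parous K8iΔRank libraries. The 5 parous K8imTmG libraries were above all other luminal libraries, and the 3 virgin K8imTmG libraries, which held 5 to 17 reads of Fzd7 each, were below all others but that of parous K8iΔRank mouse 830 (7.45). Fzd7 rose with parity in K8imTmG mice by 2.42 (SE 0.35, adjusted p = 0.0227), the only one of the 8 genes tested there to pass, beside 2.2% of all genes. In K8iΔRank mice its difference with parity was 0.01 (SE 0.41, adjusted p = 0.991).

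The parity rise of Fzd7 in K8imTmG luminal cells was 2.33 (adjusted p = 0.0148) among Clec2d-low libraries alone. It missed the threshold without mouse 531, 532, 533 or 538, with adjusted p = 0.0691, 0.0635, 0.0785 and 0.0969 in that order. The test of whether the parity effect differed between genotypes passed for Fzd7 (−2.41, SE 0.53, adjusted p = 0.0153) and Lgr4 (−2.18, SE 0.65, adjusted p = 0.0406), 2 of 7 genes tested beside 12.9% of all genes. Fzd7 passed without each mouse in turn, and Lgr4 missed the threshold without mouse 494, 538, 557, 558, 794, 798, 821, 825 or 830 (adjusted p = 0.0521 to 0.114). With the Clec2d side as a covariate and all 8 groups in 1 fit, the values were −2.51 (adjusted p = 0.127) and −1.64 (adjusted p = 0.485), and 0 genes passed in all.

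Summed luminal progenitor markers were also lowest in virgin K8imTmG cells, and the other 3 luminal groups overlapped in them. Csn3, which the study counts among lactation genes, weighed most in the sum, with a luminal median of 1559 normalized counts against 140 to 296 for the other markers. Their sum (5 of 5 in the table, Elf5, Kit, Aldh1a3, Cd14 and Csn3, each above 0 in all luminal libraries) ranged from 765 to 1308 normalized counts in virgin K8imTmG, 1986 to 3341 in virgin K8iΔRank, 2534 to 3406 in parous K8imTmG and 1774 to 3066 in parous K8iΔRank luminal libraries. The sum of 6 hormone-sensing markers (6 of 6) ranged from 8684 to 10760, 6028 to 10388, 661 to 7473 and 2915 to 6702 in the same order. Their part in the changes of Fzd7 was not tested.

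Lgr4, with the values given above, differed with parity in K8imTmG luminal cells by 1.58 (SE 0.38, adjusted p = 0.0669). In K8iΔRank cells its difference was −0.61 (SE 0.46, adjusted p = 0.381). Fzd1, at 1.47 to 3.67 normalized counts in virgin and 3.97 to 35.2 in parous K8imTmG luminal libraries, differed by 1.99 (SE 0.63, adjusted p = 0.117). Axin2, the Wnt readout, was at 0.736 to 2.10 and 3.36 to 22.4 in the same libraries and differed by 1.88 (SE 0.67, adjusted p = 0.150). None of these 3 genes passed the test.

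**Figure D4:**
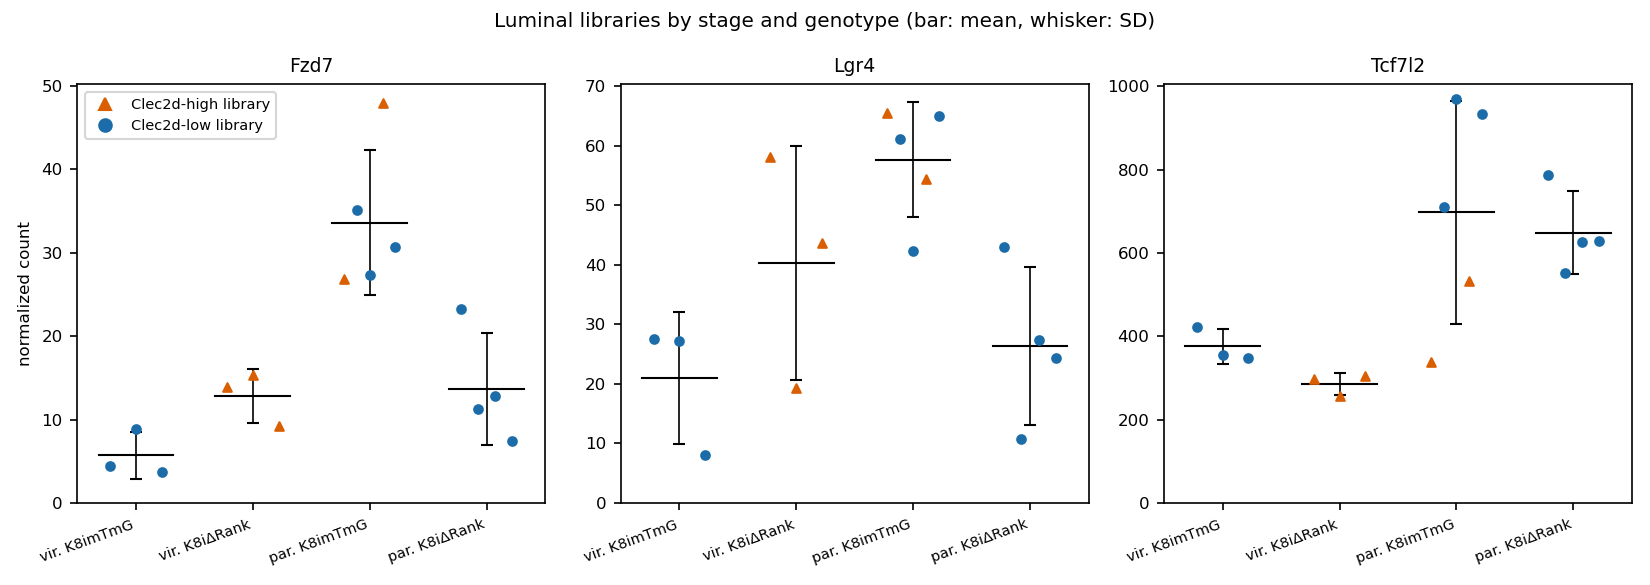
Normalized counts of Fzd7, Lgr4 and Tcf7l2 in the 15 luminal libraries by stage and genotype, 1 panel per gene, with the mean as a bar and the SD as a whisker and Clec2d sides marked. The 5 parous K8imTmG libraries of Fzd7 lay at 26.9 to 47.9, above the other 10 luminal libraries.

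In K8iΔRank luminal cells Lgr6, Tcf7l2 and Lrp5 passed for parity. Lgr6 rose from 73.2, 65.4 and 48.9 normalized counts in virgin to 157, 161, 130.4 and 218 in parous libraries (1.39, SE 0.23, adjusted p = 0.00429). Tcf7l2 rose by 1.17 (SE 0.18, adjusted p = 0.00392), with no overlap between the stages. Lrp5 fell from 63.1, 46.1 and 104 to 17.1, 19.2, 29.0 and 6.46 (−2.01, SE 0.44, adjusted p = 0.0146). These were 3 of 7 genes tested, beside 16.0% of all genes. All virgin libraries here were Clec2d-high and all parous ones Clec2d-low, so the parity effect and the split cannot be told apart. With the Clec2d side as a covariate and all 8 groups in 1 fit, the differences were 0.55 for Lgr6, 0.32 for Tcf7l2 and −0.00 for Lrp5, and none passed. In K8imTmG luminal cells, Lgr6 and Tcf7l2 passed for parity among Clec2d-low libraries alone, with rises of 1.11 (adjusted p = 0.0152) and 1.20 (adjusted p = 0.0152). The 2.2% of all genes given for that comparison belongs to the fit with both Clec2d sides, so these 2 calls are not set against all genes. The parity effect was not shown to differ between genotypes for Lgr6 (0.75, adjusted p = 0.262), Tcf7l2 (0.38, adjusted p = 0.549) or Lrp5 (−2.30, adjusted p = 0.0854).

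The genotype comparisons in luminal cells called none of the 7 genes tested by limma. In virgin mice 0.984% of all genes passed, and 22.1% (2226 genes) had an unadjusted p under 0.05. Of the 7 genes 1 had one, Lrp5 (1.27, SE 0.39, adjusted p = 0.107). It stood at 32.7, 36.7 and 16.9 normalized counts in K8imTmG and at 63.1, 46.1 and 104 in K8iΔRank cells. Fzd7 differed by 1.10 (SE 0.52, adjusted p = 0.249) in the same comparison. In parous mice 0.0991% of all genes passed, and 19.9% (2009 genes) had an unadjusted p under 0.05, as did 3 of the 7. These were Fzd7 (−1.31, SE 0.32, adjusted p = 0.102), Fzd1 (−2.09, SE 0.56, adjusted p = 0.109) and Lgr4 (−1.23, SE 0.33, adjusted p = 0.111), all lower in K8iΔRank cells. For Fzd7 no K8iΔRank library reached the lowest K8imTmG library (23.2 against 26.9). DESeq2 on the recovered reads called all 3, with adjusted p = 0.0192 for Fzd7 and 0.0378 for Lgr4, whereas edgeR called none of the 3. Lgr5, Axin2 and Znrf3 were too low in luminal libraries to be tested here.

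In basal cells, which keep Rank, virgin K8iΔRank and K8imTmG libraries differed in 3 of the 10 genes, beside 8.99% of all genes. Lgr6 was at 161, 153 and 125 normalized counts in K8imTmG and at 335, 306, 333 and 329.7 in K8iΔRank libraries (1.16, SE 0.19, adjusted p = 0.00914). Tcf7l2 was at 172, 219 and 196 against 301, 306, 347 and 321 (0.71, SE 0.19, adjusted p = 0.0451). Fzd1 was at 57.5, 24.8 and 43.5 against 5.77, 15.5, 11.5 and 3.22 (−2.21, SE 0.55, adjusted p = 0.0369). The groups did not overlap for any of the 3, but all K8imTmG libraries were Clec2d-high and all K8iΔRank ones Clec2d-low, and the 2 cannot be told apart. With the Clec2d side as a covariate and all 8 groups in 1 fit, the differences were 0.31, −0.14 and −0.66, and none passed. Without any 1 of the 7 mice Tcf7l2 missed the threshold (adjusted p = 0.0645 to 0.112), as did Fzd1 without mouse 531, 538, 568, 820 or 825 (0.0614 to 0.109), and 1 to 4 of the 10 genes passed. Lgr4 (−1.66, SE 0.50, adjusted p = 0.0645) and Lrp5 (−2.29, SE 0.70, adjusted p = 0.0663) missed the threshold.

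In parous basal cells, limma called 0 of the 10 genes for genotype, beside 0.906% of all genes. An unadjusted p under 0.05 was found for 4 of the 10, beside 22.6% of all genes (2393). Tcf7l2 came nearest, at 180.0, 169, 107 and 174 normalized counts in K8imTmG and 376, 271, 428 and 241 in K8iΔRank libraries (1.05, SE 0.24, adjusted p = 0.0538). Axin2 was at 33.5, 50.8, 27.9 and 36.4 against 6.43, 22.3, 6.16 and 23.3, with no overlap (−1.50, SE 0.44, adjusted p = 0.0884). The 2 lowest Axin2 values were those of the Clec2d-low mice 787 and 798. Among Clec2d-high libraries alone the Axin2 difference was −0.65 (adjusted p = 0.633). Without the 2 Clec2d-high K8iΔRank libraries, Axin2 (−2.35, adjusted p = 0.00176), Lrp5 (−2.19, adjusted p = 0.000778), Lrp6 (0.73, adjusted p = 0.0337) and Tcf7l2 (1.37, adjusted p = 0.00254) passed. In that fit genotype and split coincide, and 58.7% of all genes separated by Clec2d side within the parous K8iΔRank basal group. Leaving out mouse 794 alone also gave 4 calls. The 0.906% of all genes belongs to the main fit and is no measure for these 2 alternatives.

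Parity gave 0 calls among the 10 genes in basal cells of either genotype, and so did the test of whether it differed between genotypes, beside 0.0% of all genes in each. By limma 2 of the 10 had an unadjusted p under 0.05 for parity in K8imTmG, beside 9.2% of all genes (969). The counts were 1 beside 9.84% (1036) in K8iΔRank, and 3 beside 10.2% (1082) for the difference between genotypes. DESeq2 on the recovered reads called 38, 89 and 12 genes and edgeR 8, 0 and 0 in the same order, none of them among the 10. Lgr5 differed by −0.89 with parity in K8imTmG (SE 0.32, adjusted p = 0.426) and by 0.06 in K8iΔRank basal cells (SE 0.28, adjusted p = 0.940). Lgr4 differed by −0.29 (SE 0.19, adjusted p = 0.633) and 1.21 (SE 0.47, adjusted p = 0.490), with 2 of the 4 virgin K8iΔRank libraries, those of mice 820 and 825, at 49.6 and 81.6 normalized counts and all 8 parous basal libraries at 199 or more.

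The rest of the Wnt pathway was read from 10 lists of genes, of which 101 of 143 were in the table. In the lineage difference 29 of the 101 were higher and 42 lower in luminal cells, beside 28.7% and 27.0% of all genes, so the share of higher genes was that of all genes. The secreted inhibitors, which bind Wnt ligands or block their receptors, were the most one-sided, with 9 of 9 in the table (of 18 listed) lower in luminal cells and a median difference of −3.54. They included Wif1 (−7.30), Dkk3 (−5.38) and Sfrp1 (−4.89). The ligands were divided, with 3 of 7 in the table (of 19 listed) higher and 3 lower. Wnt7b (5.0) and Wnt4 (4.48), which acts downstream of progesterone, were higher in luminal cells, and Wnt10a (−4.26) and Wnt9a (−3.21) were higher in basal cells.

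Among the Frizzled receptors other than Fzd1 and Fzd7 (7 of 8 in the table), 3 were lower and 1 higher in luminal cells, Fzd3 (−2.55), Fzd2 (−2.21) and Fzd8 (−0.50) against Fzd4 (0.75). Of 6 other receptors and receptor regulators (of 11 listed), 5 were lower, among them Ror1 (−3.52) and Ptk7 (−2.02), co-receptors of signalling without beta-catenin, and Kremen1 (−1.33), a partner of Dkk proteins. In the destruction complex and its regulators (25 of 26 in the table) 11 were higher and 5 lower, with the Dishevelled-binding inhibitors Nkd1 at −5.27 and Nkd2 at −4.25. Of the nuclear factors (20 of 21) 4 were higher and 4 lower, with Tcf7l1 (−1.77) and Tcf7 (−2.48), relatives of Tcf7l2, lower in luminal cells. Widely used target genes (11 of 18) were divided, with 6 lower, such as Fst (−6.09) and Ccn4 (−5.61), and 3 higher, such as the cyclin gene Ccnd1 (3.06). The planar polarity genes (10 of 13) counted 6 lower and 2 higher, with Vangl1 at −1.44 and Celsr2 at 1.49. Of the 5 genes of Wnt secretion 3 were higher and 1 lower, the ligand carrier Wls (−0.46).

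**Figure D5:**
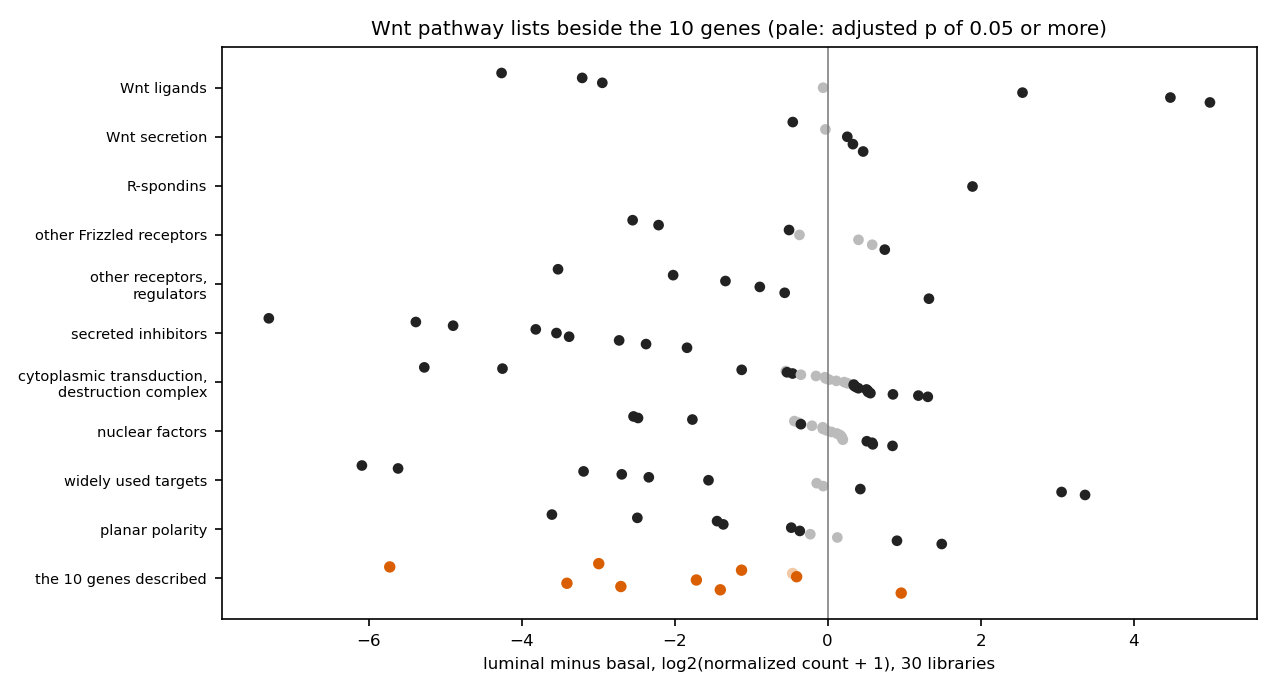
Luminal minus basal difference over 30 libraries, on the log2(normalized count + 1) scale, of each gene of the 10 Wnt pathway lists and of the 10 genes described, 1 row per list, with genes at an adjusted p of 0.05 or more drawn pale. All 9 secreted inhibitors lay below 0, and the ligands lay on both sides of it.

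Rspo1, the ligand of the Lgr receptors and the 1 R-spondin of 4 in the table, was higher in luminal than in basal cells, the opposite order to its receptors. It stood at 24.4, 75.0 and 2.21 normalized counts in virgin K8imTmG, 6.31, 7.69 and 0 in virgin K8iΔRank, 10.1, 244, 352, 144 and 173 in parous K8imTmG, and 89.0, 3.44, 8.36 and 16.4 in parous K8iΔRank luminal libraries, and at 0 to 16.3 in basal libraries. The lineage difference was 1.89 over 30 libraries (SE 0.56, adjusted p = 0.00517) and 4.44 in parous K8imTmG mice (SE 0.88, adjusted p = 0.00241). No genotype or parity comparison in which Rspo1 was tested passed. The genotype difference in luminal cells was −2.20 (adjusted p = 0.291) in virgin and −2.90 (adjusted p = 0.176) in parous mice, lower in K8iΔRank cells. Its parous K8imTmG luminal values alone ran from 10.1 to 352. By qPCR the study reported less Rspo1 in sorted GFP+ luminal cells of virgin K8iΔRank mice.

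Pathway genes outside the lineage difference were counted beside the share of all genes that passed. In K8imTmG luminal cells 2 of 85 passed for parity (2.2% of all genes), the targets Cd44 (1.84, adjusted p = 0.0285) and Id2 (1.15, adjusted p = 0.0471). Cd44 missed the threshold without mouse 531, 532, 533, 538, 557 or 558 (adjusted p = 0.0531 to 0.107), and Id2 without any 1 of these or mouse 534 (0.0843 to 0.139). In K8iΔRank luminal cells 13 of 84 passed for parity (16.0% of all genes), 7 higher and 6 lower, with Wnt5b (1.51), Tcf7l1 (1.43) and Wnt7b (1.16) among the rises. The parity effect differed between genotypes for 8 of 85 genes (12.9% of all genes), among them Wnt7b (2.21, adjusted p = 0.00786). In virgin basal cells 12 of 97 passed for genotype (8.99% of all genes), 10 higher and 2 lower in K8iΔRank mice, with Nkd2 (2.67) higher and the inhibitor Sfrp5 (−3.46, adjusted p = 0.0638 without mouse 538) lower.

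These last 3 comparisons coincide with the Clec2d split or cross it. With the Clec2d side as a covariate and all 8 groups in 1 fit, the parity differences in K8iΔRank luminal cells were 0.75 for Wnt5b, 0.37 for Tcf7l1 and 0.85 for Wnt7b (adjusted p = 0.99989 each). The interaction of Wnt7b was 1.77 (adjusted p = 0.526), and in virgin basal cells Nkd2 differed by 2.58 (adjusted p = 0.360) and Sfrp5 by −2.13 (adjusted p = 0.460), so none passed. In parous basal cells 1 of 99 pathway genes passed for genotype (0.906% of all genes), Celsr2 (1.46, adjusted p = 0.0436). It missed the threshold without mouse 532, 534, 557, 787, 798 or 830 (adjusted p = 0.0557 to 0.139) and among Clec2d-high libraries alone (1.28, adjusted p = 0.313).

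The genes whose levels followed each of the 10 most closely over the 30 libraries were found by Pearson's r of log2 values among 5216 genes with a mean of at least 50 normalized counts. The libraries share lineage and Clec2d side, so these values describe both. Lgr5 was most alike to Cnn1, a calponin of smooth muscle and myoepithelial cells, Cxcl14 and Mmp2 (r = 0.98 each). Fzd7 was most alike to Tfap2c (0.97), Pdgfa (0.95) and Prkg1 (0.95), and Lgr4 to Amotl1 (0.97), Ripor2 (0.96) and Zfp275 (0.96). Axin2 came with Pdgfb (0.91), Hacd1 (0.90) and Ripor2 (0.88), and Znrf3 with Ext1 (0.88) and Dsel (0.85).

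Lrp5 stood apart from these. It was most alike to Ndufa1, a subunit of the respiratory chain, Map2k1 and Psma5, a proteasome subunit (0.94 each). Lrp6 had the weakest likeness, with Tiparp (0.77), Clic4 (0.76) and Rasal2 (0.76). Lgr6 was most alike to Boc (0.89), Auts2 (0.89) and Vangl1 (0.88), Fzd1 to Ccn1 (0.88), Ccng2 (0.86) and Rap1a (0.86), and Tcf7l2 to Hivep3, Lpcat1 and Chst1 (0.90 each). Within the 15 luminal libraries Lgr6 varied with Tcf7l2 (r = 0.86) and against Lrp5 (r = −0.83). Within the 15 basal libraries Lrp5 followed Lgr4 (0.88), Axin2 (0.85) and Fzd1 (0.82), and Axin2 and Tcf7l2 were opposed (−0.81).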

How the data were processed

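The authors built 3′ QuantSeq libraries (sense strand, molecular barcodes) from sorted cells, and used BBDuk, UMI-tools, Bowtie2 on GRCm39, SAMtools, BEDtools, Gencode vM26, FastQC 0.11.9 and DESeq2. The deposited values are a signal: counts divided by DESeq2 size factors. Whole reads were recovered for 100% of values within 0.01 reads, and 0 columns were left unused. Counts of 3′ ends do not scale with transcript length, but levels were not compared between genes.

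Groups, animals and lineages came from the sample labels. limma 3.58.1 (with trend) was run on log2(normalized count + 1), keeping genes that exceeded 10 normalized counts in 25% or more of the compared libraries, and p-values were adjusted by Benjamini-Hochberg over all genes tested, with a threshold of 0.05. Each comparison used the libraries of its own groups. DESeq2 1.42.0 and edgeR 4.0.16 on recovered reads, other pseudocounts, filters, scalings and left-out mice were alternatives. The fits were tested on simulated data. p-values are two-sided, and error covers the spread between mice. No pair of libraries of 1 group agreed within sampling noise (chi-square per degree of freedom of at least 2.67).

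Libraries of the same mouse number come from the same animal, so numbers pair luminal and basal libraries. Deviations of the 2 libraries from their group means correlated by −0.238 to 0.341 over genes in 13 mice (median 0.0897), over 0.1 in 6 and below 0 in 4. The 10 genes and the lists were chosen with earlier results of these data known. Pathway genes named are up to 4 per list by lowest adjusted p in the lineage difference and up to 3 per other comparison. The genes most alike to each of the 10 are the 3 with the highest r, of which 1 is not reported here. TCF/LEF letters were searched in GRCm39 upstream of gene starts of a later Gencode release than the authors'.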

Additional observations from a re-analysis of the deposited data

Results flagged for a closer look

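Single libraries stood far from the rest of their group in 3 of 50 groups of 4 or 5 libraries tested over the 10 genes, and chance flags about 1 in 20. Lgr5 stood at 12.8 normalized counts in the luminal parous K8imTmG library of mouse 557, against 0.882 to 3.36 in the other 4, and the value rests on 4 reads. Lrp6 stood at 127 in the basal parous K8imTmG library of mouse 558, against 91.6 to 93.6 in the other 3. Tcf7l2 stood at 107 in the basal parous K8imTmG library of mouse 557, against 169 to 180.0.

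In luminal cells the parity effect differed between genotypes for Fzd7 (−2.41 on the log2 scale) and for Lgr4 (−2.18) by limma. The lineage difference differed among the 4 conditions for Tcf7l2 (adjusted p = 0.00148), Fzd7 (0.00602), Lgr6 (0.00703), Lrp5 (0.0188) and Lgr4 (0.0223). The Clec2d side of the libraries changed with these groups.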

How the results depend on the processing

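The number of the 10 genes that passed for the lineage difference was 9 without each mouse in turn. Leaving out 1 mouse gave 5 to 8 calls in virgin K8imTmG, 3 to 5 in virgin K8iΔRank, 5 to 6 in parous K8imTmG and 5 to 8 in parous K8iΔRank mice, 2 to 6 for the F test, 0 to 0 for genotype in virgin and parous luminal cells, 0 to 2 for parity in K8imTmG and 3 to 4 in K8iΔRank luminal cells, 1 to 3 for their interaction, 1 to 4 for genotype in virgin and 0 to 4 in parous basal cells, and 0 to 0 for basal parity and interaction. A mean of at least 50 normalized counts left 4 calls for lineage in parous K8iΔRank mice, 0 for parity in K8imTmG luminal cells and 0 for the luminal interaction, where fewer of the 10 genes were tested, and gave 1 for genotype in parous basal cells, as did a pseudocount of 4. DESeq2 gave 1 call for genotype in virgin luminal (Lrp5), 3 in parous luminal, 4 for parity in K8imTmG luminal, 4 for the luminal interaction, 5 for genotype in virgin and 1 in parous basal cells. Array weights gave 1, 3 and 7 in the first 3 of these and 4 in parous basal cells. All 8 groups in 1 fit gave 2 for genotype in parous luminal, 4 for parity in K8imTmG luminal and 1 for genotype in parous basal cells. The cause of these moves was not tested. Shares of all genes were given for the main fits only, so the counts of the 10 genes in this section are not set against all genes.

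The Clec2d alternatives were planned in part, and the covariate fits were added after seeing the data. Clec2d-low libraries alone and the side as a covariate each gave 3 calls for parity in K8imTmG luminal cells, and the covariate left 1 for the F test. With all 8 groups in 1 fit as well, the covariate gave 1 for genotype in parous luminal, 3 for parity in K8imTmG luminal and 0 for parity in K8iΔRank luminal cells, the luminal interaction and genotype in virgin basal cells. Without the 2 Clec2d-high K8iΔRank libraries, parous basal cells gave 4. The lineage difference of Lrp5 reversed to 0.0514 and 0.21 in Clec2d-high and Clec2d-low libraries, and to 0.10 with the covariate. It was 0.30 without the libraries of lowest depth, where 22 libraries met the depth limit. Among basal K8imTmG libraries only those of virgin mouse 531 and parous mouse 558 met it. The luminal libraries that met it were of both genotypes, so the 0.30 mixes lineage with genotype and does not test depth alone. With the covariate and all 8 groups, Tcf7l2 in virgin basal cells (−0.14) and Lrp5 in virgin luminal cells (−0.74) reversed.

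The mouse as a replicate block pairs the lineages and keeps only the 13 mice that gave both, so libraries of the other mice dropped out. With it 10 genes passed over all 4 conditions, 6 in virgin K8imTmG, 5 in virgin K8iΔRank, 6 in parous K8imTmG, 7 in parous K8iΔRank mice and 4 in the F test. The shares of all genes in the main fits do not apply to these counts. The block changed no other call than those given in the report. Over all genes, the counts moved by over 1.5 times most in the genotype comparisons, from 99 to 648 with DESeq2 and 2514 with array weights in virgin luminal, 10 to 611 and 1147 in parous luminal, and 96 to 569 and 2572 in parous basal cells, and for parity in K8imTmG luminal cells from 226 to 1060 and 3993. In luminal cells 5 of 15 libraries held under 3 reads of Lgr5, 8 of Axin2 and 2 of Znrf3, which limits their values there.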
